A study of Mus musculus with 6 samples.

Results

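The 10 genes described here encode integrin subunits that bind fibronectin, laminin or ligands with an arginine-glycine-aspartate (RGD) sequence: Itga4, Itga5, Itga6, Itga7, Itga8, Itga9, Itgav, Itgb3, Itgb5 and Itgb8. They were chosen by name, and each was read by the probes whose RefSeq accession maps to it. All 10 had at least 1 probe, 13 probes in all, out of 20018 named genes on the array; 8 of the 10 were bright enough to be tested, out of 12472 named genes tested. Expression was measured on 6 one-colour arrays of cultured mouse lung fibroblasts, 3 from Mmp19 knockout mice (title label Mmp19_KO) and 3 from wild-type mice. The labels give all mice as female and 11 weeks old, and all had been given 0.08 units of bleomycin, a drug that causes lung injury and scarring, through the trachea. Their lung fibroblasts were taken 21 days later and cultured for 72 hours, so the wild-type cells are also cells of injured lung and no uninjured group was compared. The series describes independent experiments; the labels do not say whether an array holds cells of 1 mouse or of several, and p-values measure the spread between these arrays.

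Integrins are cell-surface receptors made of one α and one β subunit, which bind the extracellular matrix outside the cell and, through adaptor proteins such as talin, the actin cytoskeleton inside. The subunits α5, α8 and αv pair with β partners to read the RGD sequence of fibronectin and related proteins, α6 and α7 read laminins of basement membranes, and α4 and α9 read other sites in fibronectin, VCAM-1 or tenascin. In fibrotic lung, integrins that hold αv are known for releasing active TGF-β, a growth factor that drives fibroblasts to make matrix, from its latent complex.

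Among the integrin genes, Itga8 was clearly higher in knockout cells, Itga7 was higher at the edge of the threshold, and the other 6 tested genes did not pass. In the limma fit, 2 of the 8 tested genes rose and 0 fell (adjusted p under 0.05), and 3 had an unadjusted p under 0.05. Over all named genes tested 4.79% passed (598 of 12472), 3.3% higher and 1.49% lower, and over all probes 4.64%, 2.88% higher and 1.76% lower. The median log2 change over the 8 genes was 0.43, and it was 0.08 over all named genes tested. All 8 were above background on all 6 arrays, so none was tested because of 1 group alone; of the 11295 named genes of that kind, 3.73% were called in either direction and 2.78% as higher. The other 2 genes were not tested: Itga4 was above background on 2 wild-type arrays only, and Itgb8 on no array. The median depended on single arrays: leaving out wild-type replicate 1 gave 0.01, and leaving out wild-type replicate 2 gave 0.81.

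**Figure D1:**
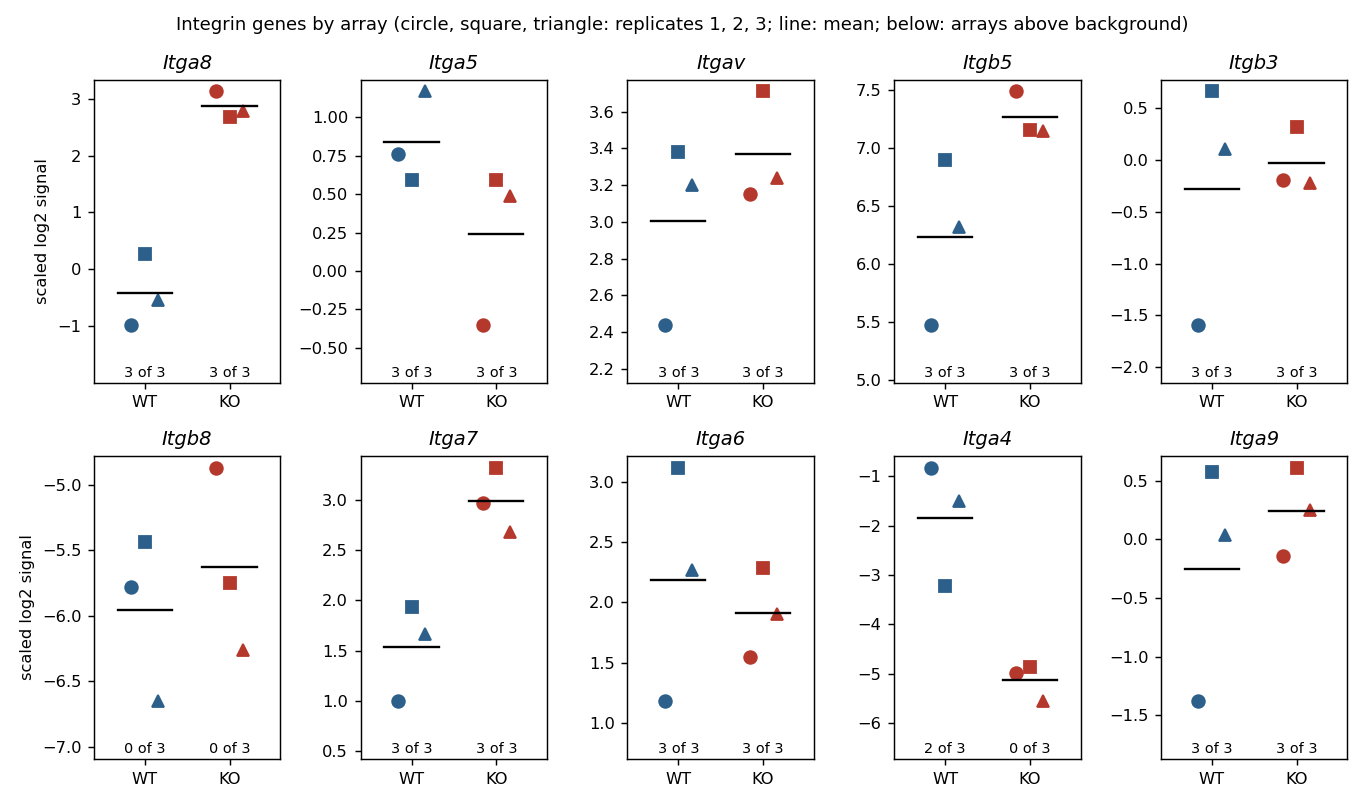
Scaled log2 signal (vertical axis, 0 being the 75th percentile of the array; each panel has its own range) of the 10 integrin genes on the 3 wild-type (WT) and 3 knockout (KO) arrays, with the mean as a line and the number of arrays above background under each group. For Itga8 the knockout arrays lie between 2.68 and 3.13 and the wild-type arrays between -0.98 and 0.27, while for Itgav, Itgb3, Itga6, Itga9 and Itga5 the groups overlap.

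Some facts on the arrays bear on these values. The 75th percentile of the processed signal ran from 138 to 328 in knockout and from 190 to 290 in wild-type arrays, and 43.1% to 54.5% of spots were above background. Wild-type replicate 2 correlated less with its group (0.939 and 0.960) than the other wild-type arrays with each other (0.984). Wild-type replicate 1 held the lowest value of all 6 arrays for 7 of the 8 tested integrin genes, and for 21% of all named genes; wild-type replicate 2 held the lowest value for 36.2% of named genes and for 0 of these 8. Mmp19, the deleted metalloproteinase, was above background on 0 of 3 knockout and on 3 of 3 wild-type arrays and its knockout signal was lower by at least 5.33-fold. It was tested through the wild-type group, where it is high. The limma adjusted p of 0.016 belongs to the unbounded log2 difference of -4.62, and that bound has no test. Both Xist probes were above background on 3 of 3 knockout and 0 of 3 wild-type arrays, and the Y-linked Eif2s3y and Ddx3y were above background on all 6 arrays, against the label of female mice. The log2 differences of Eif2s3y and Ddx3y were -3.21 and -2.47 (limma adjusted p = 0.112 and 0.139). The Xist probes were higher in knockout cells by at least 7.41-fold and 1.85-fold, bounds without a test. Their unbounded log2 differences of 5.02 and 2.62 passed (limma adjusted p = 0.00323 and 0.0193, and 0.0301 and 0.0467 with slide as a block). Both were tested through the knockout group, where they are high. A difference of sex or of animals cannot be told apart from genotype in any comparison here. All 13 listed fibroblast markers were tested; 2 rose (Col1a1 and Col1a2) and 0 fell, against 5 and 1 without wild-type replicate 2, and 7 had an unadjusted p under 0.05. With slide as a block neither collagen passed (adjusted p = 0.0843 and 0.0942) and Fap did (0.049). Their summed signal, in multiples of each array's 75th percentile, was 2590 to 2700 in knockout and 1300 to 2450 in wild-type arrays.

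The RGD-binding group comprised Itga8, Itga5, Itgav, Itgb5, Itgb3 and Itgb8. Itga8 encodes the α8 subunit, which pairs with β1 and is found on smooth muscle cells and activated fibroblasts. Its scaled log2 signal was 3.13, 2.68 and 2.79 on the knockout arrays and -0.98, 0.27 and -0.55 on the wild-type arrays. Every knockout array lay above every wild-type array, and the lowest knockout value stood well above the highest wild-type value. The means were 2.87 ± 0.23 (SD, n = 3) and -0.42 ± 0.64 (SD, n = 3), a log2 difference of 3.29 ± 0.35 (SE), or 9.77-fold (95% interval 2.47 to 4.11 on the log2 scale; limma adjusted p = 0.00713). Only 0.593% of the named genes tested had a higher change. Arrays of equal replicate number shared a slide, and the difference within slides was 4.11, 2.41 and 3.35. Blocking on slide gave an adjusted p of 0.0453, in a fit that called 1.8% of named genes, 1.17% as higher. The call was lost, with the size nearly the same, when replicate 3 of the knockout (log2 difference 3.33, adjusted p = 0.0538) or of the wild type (3.22, adjusted p = 0.0536) was left out.

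The proximal promoter of Itga8 is shown beside those of Itgb5, the RGD-binding gene with the next largest difference, and of Itga4, whose signal was at background in knockout cells, below every wild-type array, because their groups did not overlap. Each is a window of 250 bases before to 50 bases after the start site on the sense strand, from RefSeq on build GRCm38.p6; 7 of the 10 integrin genes had an entry, and Itga6, Itga7 and Itgb3 had none. Capitals mark matches on either strand to 6 motifs: the GC box (GGGCGG), the TATA box (TATAAA), a TEAD element (GGAATG), an AP-1 element (TGANTCA), a SMAD element (GTCTAGAC) and the CArG box of serum response factor; none of the matches overlapped another.
Itga8 (chr2:12301895-12302194, minus strand): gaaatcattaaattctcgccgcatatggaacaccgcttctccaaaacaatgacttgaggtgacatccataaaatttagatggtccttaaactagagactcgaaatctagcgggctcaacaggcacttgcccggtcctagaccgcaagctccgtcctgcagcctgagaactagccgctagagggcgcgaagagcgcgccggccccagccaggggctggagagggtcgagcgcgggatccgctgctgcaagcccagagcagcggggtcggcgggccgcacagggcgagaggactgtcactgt
Itgb5 (chr16:33829415-33829714, plus strand): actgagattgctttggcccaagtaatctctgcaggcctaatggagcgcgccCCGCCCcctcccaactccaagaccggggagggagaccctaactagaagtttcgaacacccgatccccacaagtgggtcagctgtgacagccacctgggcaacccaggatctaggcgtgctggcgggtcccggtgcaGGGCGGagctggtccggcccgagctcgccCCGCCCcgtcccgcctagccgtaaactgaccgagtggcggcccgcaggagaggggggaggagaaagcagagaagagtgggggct
Itga4 (chr2:79255176-79255475, plus strand): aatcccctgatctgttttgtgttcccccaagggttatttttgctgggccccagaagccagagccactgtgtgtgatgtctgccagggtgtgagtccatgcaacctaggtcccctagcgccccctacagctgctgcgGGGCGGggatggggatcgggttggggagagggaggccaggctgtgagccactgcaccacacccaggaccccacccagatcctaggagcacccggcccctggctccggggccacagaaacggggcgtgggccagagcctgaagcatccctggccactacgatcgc
The Itgb5 window held 3 GC boxes, the Itga4 window held 1, and the Itga8 window held no match to any of the 6 motifs. Of the 32851 promoter windows in the table, 35.7% held a GC box, 13.6% a TATA box, 14.7% the TEAD element, 7.81% the AP-1 element, 0.213% the SMAD element and 1.63% a CArG box. G and C made up 59.0% of the Itga8 window, 65.7% of the Itgb5 window and 64.3% of the Itga4 window, with 23, 20 and 10 CG dinucleotides, and the median over all windows was 52.7% G and C. A match is a description of letters, and its absence says nothing of a factor.

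Itgb5 encodes the β5 subunit, which pairs with αv as a receptor for vitronectin. The knockout arrays read 7.49, 7.16 and 7.15 and the wild-type arrays 5.48, 6.90 and 6.32. The groups did not overlap, yet wild-type replicate 1 stood below the other wild-type arrays. The log2 difference was 1.03 ± 0.37 (SE, n = 3 per group; 95% interval 0.16 to 1.91) and did not pass (limma adjusted p = 0.174). Within slides it was 2.01, 0.26 and 0.83. Leaving out wild-type replicate 1 gave 0.66 (adjusted p = 0.282), and leaving out wild-type replicate 2 gave 1.36 (adjusted p = 0.0542).

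Itgav encodes αv, the partner of β3, β5 and β8. Its brighter probe read 3.15, 3.71 and 3.24 on the knockout arrays and 2.44, 3.38 and 3.20 on the wild-type arrays. The groups overlapped, with a log2 difference of 0.36 ± 0.31 (SE, n = 3 per group; 95% interval -0.38 to 1.10; limma adjusted p = 0.546). A second, dimmer probe gave 0.68 ± 0.32 and an adjusted p of 0.279, with the same sign and also with overlapping groups.

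Itga5 encodes α5, which with β1 forms the main fibronectin receptor of fibroblasts. It read -0.35, 0.59 and 0.49 in knockout and 0.76, 0.59 and 1.17 in wild-type cells. Its log2 difference was -0.60 ± 0.32 (SE, n = 3 per group; 95% interval -1.35 to 0.16) and did not pass (limma adjusted p = 0.332). Knockout replicate 1 was the lowest of the 6 arrays, and replicate 2 of both groups read 0.59.

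Itgb3 encodes β3, which pairs with αv on fibroblasts and endothelium and with αIIb on platelets. Its brighter probe read -0.19, 0.32 and -0.22 in knockout and -1.59, 0.66 and 0.10 in wild-type cells. The wild-type values enclosed the knockout values, and the log2 difference of 0.25 ± 0.56 (SE, n = 3 per group; 95% interval -1.08 to 1.58) did not pass (limma adjusted p = 0.834). Its direction rested on wild-type replicate 1: it was -0.41 without that array. A second Itgb3 probe was not above background on any array. Of 8 platelet and megakaryocyte markers, Gp9, Pf4 and Gp6 were at background on every array, and the summed signal of the list was 3.38 to 5.80 in knockout and 1.85 to 4.02 in wild-type arrays.

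Itgb8 encodes β8, which pairs with αv and is known for binding latent TGF-β. Its probe was not above background on any of the 6 arrays, with scaled values between -6.65 and -4.87, and no fold is given.

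The 2 laminin receptor genes differed from each other. Itga7 encodes α7, the laminin receptor typical of skeletal and smooth muscle. It read 2.97, 3.32 and 2.68 on the knockout arrays and 1.0, 1.94 and 1.67 on the wild-type arrays. All knockout arrays lay above all wild-type arrays. The log2 difference was 1.45 ± 0.31 (SE, n = 3 per group; 2.73-fold; 95% interval 0.72 to 2.18), and it passed by the narrowest margin (limma adjusted p = 0.04999). Within slides the difference was 1.96, 1.38 and 1.01, and with slide as a block it did not pass (adjusted p = 0.0833). It passed in 5 of 17 alternatives and was positive in all 17, from 1.06 to 1.65. Its call was lost without each array in turn other than wild-type replicate 2 (adjusted p from 0.106 to 0.148), and without that array it was 0.0337.

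Itga6 encodes α6, which pairs with β1 or β4 and is common on epithelium and endothelium. It read 1.55, 2.29 and 1.90 in knockout and 1.18, 3.12 and 2.27 in wild-type cells. The wild-type arrays held both the lowest and the highest value, and the log2 difference of -0.28 ± 0.49 (SE, n = 3 per group; 95% interval -1.44 to 0.89) did not pass (limma adjusted p = 0.788). Leaving out wild-type replicate 2 gave 0.19, and leaving out wild-type replicate 1 gave -0.79, so its sign depended on which wild-type array was kept. Within each array the log2 ratio of Itga7 to Itga6 was higher in the knockout by 1.73 on average, with every knockout array above every wild-type array (exact two-sided permutation p = 0.1, the smallest that 3 arrays against 3 allow). Of 16 lung epithelial markers 12 were tested, and Krt14, a basal cell keratin, rose (2.95 ± 0.36, limma adjusted p = 0.0118, and 0.0602 with slide as a block). It was the 1 positive gene of the 12, whose median was -0.16; the basal markers Krt5 (-0.34) and Trp63 (-0.02) did not pass. Epcam, Nkx2-1 and Cldn18 were at background on every array. Sftpc (mean 4.95 in knockout and 4.97 in wild-type cells) and Scgb1a1 (2.7 and 2.85) were above background on every array. The summed signal of the list was 40.3 to 74.2 in knockout and 51.0 to 66.4 in wild-type arrays. Of 12 endothelial markers 7 were tested and 0 passed in the limma fit (1 at an unadjusted p under 0.05 and 0 with slide as a block), and Tek, Tie1, Emcn, Erg and Sox17 were at background on every array. Flt1 (mean 3.83 in knockout and 3.25 in wild-type cells) and Kdr (1.58 and 1.77) were among those above background on every array.

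Itga4 and Itga9 encode the related subunits α4, known from leukocytes, and α9, a receptor for tenascin and VCAM-1. Itga4 was not above background on any knockout array, where its brighter probe read -4.99, -4.86 and -5.55. On the wild-type arrays it read -0.83, -3.23 and -1.51, above background on replicates 1 and 3 and not on replicate 2. All knockout values lay below all wild-type values, as in 9.82% of named genes tested. With the knockout signal set at the lowest signal above background on each array, it was 3.66-fold below the wild-type mean. That mean includes wild-type replicate 2, itself not above background, so the value is not a firm lower limit. It has no test, since the gene failed the brightness filter. Without any filter the limma adjusted p was 0.108. With normexp background correction the log2 difference was -0.98, a smaller change than the 3.66-fold above. Without wild-type replicate 2 the gene entered the test through the wild-type group, where it is high, and had an adjusted p of 0.00548, in a fit that called 7.23% of all probes tested, 4.23% as lower. A second Itga4 probe was not above background on any array.

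Of 17 leukocyte markers 16 had a probe and 8 were tested, and 0 passed in the limma fit (3 at an unadjusted p under 0.05, and 0 with slide as a block). Mrc1, Cd79a, Ms4a1 and Cpa3 were among those at background on every array. Others were above background on every array, among them Itgam (mean 5.78 in knockout and 5.71 in wild-type cells), Csf1r (3.48 and 2.82) and Cd14 (1.18 and 0.99). S100a8, a neutrophil protein, had scaled values of -3.68, -3.56 and -3.90 in knockout and 1.70, -2.70 and 1.15 in wild-type cells, with replicates 1 and 3 high (log2 difference -3.76 ± 1.07, limma adjusted p = 0.105, and 0.00204 without wild-type replicate 2). S100a8 was above background on 1 knockout and 3 wild-type arrays, so it was tested through the wild-type group, where it is high. The list went both ways, with a median of 0.02 and 4 of 8 positive. Lyz2, a macrophage lysozyme (1.02), was called higher without wild-type replicate 2 (limma adjusted p = 0.0416). It was above background on 3 knockout arrays and 1 wild-type array, so it was tested through the knockout group, where it is high. The summed leukocyte signal was 50.5 to 113 in knockout and 62.5 to 77.5 in wild-type arrays. The part of leukocyte RNA in the Itga4 difference was not tested, and in cultures of mixed cells fewer cells of a type and less RNA per cell cannot be told apart.

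Itga9 read -0.14, 0.61 and 0.25 in knockout and -1.38, 0.57 and 0.04 in wild-type cells. The groups overlapped, with a log2 difference of 0.50 ± 0.50 (SE, n = 3 per group; 95% interval -0.70 to 1.69; limma adjusted p = 0.613). The difference was 1.23 on slide 1 and 0.04 and 0.22 on the others, and it was -0.06 without wild-type replicate 1.

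**Figure D2:**
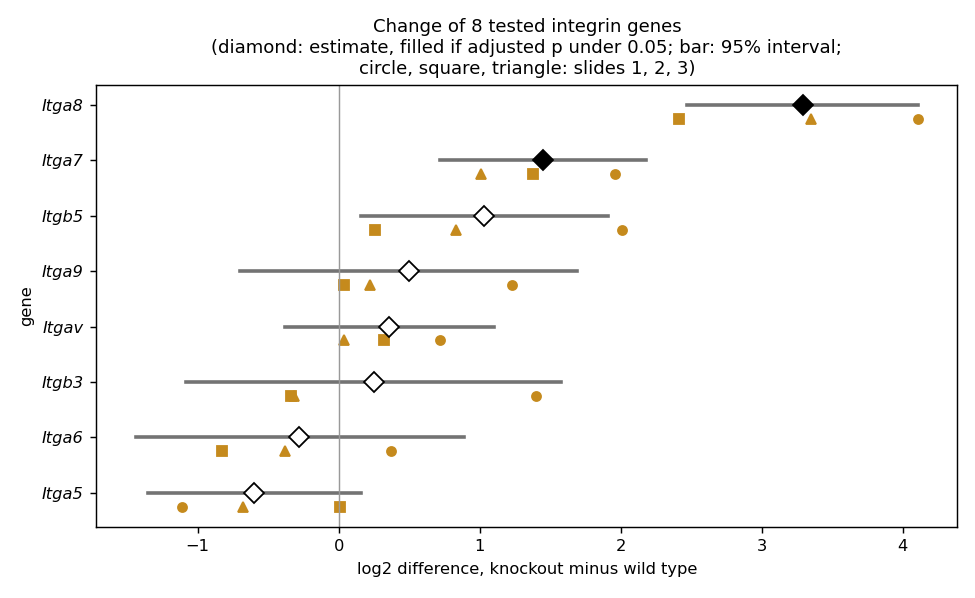
Log2 difference, knockout minus wild type, of the 8 tested integrin genes: diamonds are estimates from all 6 arrays (filled where adjusted p is under 0.05), bars 95% intervals, and circles, squares and triangles the differences on slides 1, 2 and 3. Itga8, Itga7, Itgb5, Itgav and Itga9 are positive on all 3 slides, Itgb3, Itga6 and Itga5 change sign between slides, and slide 1 gives the highest value for every gene except Itga5.

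The integrin genes did not move as a block. Itga8, Itga7 and Itgb5 were the 3 of 8 tested genes whose knockout arrays all lay above the wild-type arrays, which held for 20.9% of the named genes above background on all arrays. The change of Itga8 exceeded that of Itgav by 2.93 and that of Itga5 by 3.88 on the log2 scale, measured as within-array ratios with no overlap between groups (exact two-sided permutation p = 0.1 for both, the smallest possible). For Itgb5 against Itgav the ratio differed by 0.67, with overlapping groups (exact permutation p = 0.2). The pair most alike over the 6 arrays was Itga9 and Itgb3, whose centred profiles differed by a root mean square of 0.20 log2 units, followed by Itga9 and Itgav at 0.31. Itga8 and Itga5 were the least alike, at 2.04.

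Over all named genes tested, the profiles most like that of Itga8 were those of Htra1, a secreted serine protease, Olfml2b, a matrix glycoprotein, and Col8a1, a short-chain collagen, at root mean square differences of 0.29, 0.29 and 0.30 over 6 arrays. Their log2 differences were 3.31, 3.34 and 3.33, which lie near that of Itga8 because the genes were chosen by likeness over these same arrays. For Itga7 they were Slc16a4, a transporter of the monocarboxylate family, Rab27b, a GTPase of secretory vesicles, and Spry1, an inhibitor of growth factor signalling, at 0.10, 0.12 and 0.12. Their log2 differences were 1.6, 1.33 and 1.51, near that of Itga7 by the same choice, and that of Rab27b did not pass (limma adjusted p = 0.0533).

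Some markers of other cell types were also higher in knockout cells. Of 15 pericyte and smooth muscle markers 11 were tested, and 2 rose: smooth muscle myosin Myh11 (2.98 ± 0.35, limma adjusted p = 0.0109) and the filament protein Des (2.49 ± 0.44, adjusted p = 0.0316). Myh11 and Des were above background on 2 and 1 of 3 wild-type arrays, so both were tested through the knockout group, where they are high. The list was mixed, with a median of 0.62 and 8 of 11 positive: Notch3 (-1.31), Cspg4 (-1.22) and Smtn (-0.43) were negative and did not pass. Acta2, smooth muscle actin, did not pass (0.83 ± 0.69, adjusted p = 0.530), the pericyte gene Rgs5 was above background on 0 knockout and 2 wild-type arrays, and Abcc9 was at background on all. The summed signal of that list was 791 to 1010 in knockout and 214 to 1120 in wild-type arrays, which overlapped. Of 10 skeletal muscle markers, Myod1, Myog, Ckm, Myh4 and Actn2 were at background on every array. Des, which is on both lists, was the 1 gene that rose, and the sum was 11.3 to 15.9 against 2.21 to 9.36. Most of that sum came from Acta1 and not from Des. Acta1 read 3.91, 3.37 and 3.67 in knockout and 0.90, 3.15 and 2.35 in wild-type cells and did not pass (1.52 ± 0.54, limma adjusted p = 0.174). Of 14 mesothelial markers 12 were tested and 6 rose, where 3.3% of all named genes tested were called as higher. Among the 6 were mesothelin, Msln (3.44 ± 0.56, limma adjusted p = 0.0250), and Bnc1 (4.18 ± 0.27, adjusted p = 0.00257). Bnc1 was above background on 1 of 3 wild-type arrays, and Upk3b and Lrrn4, which also rose, on 2 of 3. Bnc1, Upk3b and Lrrn4 were thus tested through the knockout group, where they are high. The list's median was 3.58, with 10 of 12 positive. Krt19 (-0.28) and Krt8 (-0.02) were negative and did not pass, and neither did Upk1b (3.29 ± 2.04, limma adjusted p = 0.401). With slide as a block 7 of the list were called as higher, in a fit that called 1.17% of named genes as higher. Calb2 was at background on every array. The summed signal of the mesothelial list was 53.8 to 170 in knockout and 4.48 to 22.7 in wild-type arrays, with no overlap. Of 8 Schwann and neural markers Mbp rose (1.95 ± 0.42, adjusted p = 0.04999, and 0.128 with slide as a block), and the sum was 18.4 to 27.6 against 5.39 to 13.3. The part of any of these cell types in the Itga8 or Itga7 result was not tested.

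The other genes of the integrin pathway were read in lists. The counts below stand beside 4.79% of all named genes tested that passed, 3.3% higher and 1.49% lower. Of 16 other integrin subunits 14 had a probe and 8 were tested, of which 1 rose and 0 fell. That gene was Itga11, the α11 subunit that binds collagen, with scaled values of 5.31, 5.05 and 4.97 in knockout and 1.40, -0.09 and 1.01 in wild-type cells (log2 difference 4.34 ± 0.39, limma adjusted p = 0.00439, and 0.0271 with slide as a block). Itgb1, the β1 subunit that α4 to α9 and αv can all share, read 5.41, 5.76 and 5.54 in knockout and 3.70, 5.67 and 5.17 in wild-type cells. Its groups overlapped and it did not pass (0.72 ± 0.49, adjusted p = 0.441). Itgb6, the β6 subunit of epithelium, Itga2, Itgad and Itgax were at background on every array.

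Of 33 integrin ligands 25 were tested, and 2 rose and 0 fell: the laminin chain Lama5 (2.13 ± 0.34, limma adjusted p = 0.0241) and thrombospondin 1, Thbs1 (1.13 ± 0.20, adjusted p = 0.0318). Neither passed with slide as a block (adjusted p = 0.0827 and 0.0836). The median change over the list was 0.67, with 18 of 25 positive. Fibronectin itself, Fn1, read 8.49, 8.95 and 8.60 in knockout and 6.35, 8.49 and 8.0 in wild-type cells. Knockout replicate 1 and wild-type replicate 2 were level at 8.49, and Fn1 did not pass (1.06 ± 0.53, adjusted p = 0.306). Nephronectin, Npnt, a main ligand of α8β1, was above background on 2 knockout arrays and 1 wild-type array and was not tested, and vitronectin, Vtn, was at background on all. Osteopontin, Spp1, which binds αv and α9 integrins, was 1.80 lower on the log2 scale with an SE of 0.64 and did not pass (adjusted p = 0.171). Without wild-type replicate 2 the list held 6 higher genes (Postn, Fbln5, Svep1, Lama2, Lama5 and Thbs1) and 1 lower, Tgfbi, an RGD protein (limma adjusted p = 0.00699). Postn, Fbln5 and Svep1 had limma adjusted p of 0.0219, 0.0252 and 0.0363 there. That fit called 7.23% of all probes, against 4.64% with all arrays.

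Of 16 genes of the latent TGF-β complex and its response, all tested, 1 rose: the receptor Tgfbr2 (1.21 ± 0.26, limma adjusted p = 0.0492, and 0.0681 with slide as a block). The list's median was 0.52. Of 44 integrin activators and adhesion adaptors 35 were tested, and 2 rose and 0 fell, namely talin 2, Tln2 (1.59 ± 0.29, adjusted p = 0.0346), and the focal adhesion kinase relative Ptk2b (1.5 ± 0.26, adjusted p = 0.0284), with a median of 0.16. Both lost their calls with slide as a block (adjusted p = 0.0841 and 0.0519), and without wild-type replicate 2 the list held 4 higher genes. Of 16 membrane partners of integrins 0 passed in the limma fit or with slide as a block (3 at an unadjusted p under 0.05), with the smallest p for Bsg (0.85 ± 0.25, adjusted p = 0.117) and Sdc3 (0.87 ± 0.27, adjusted p = 0.126).

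**Figure D3:**
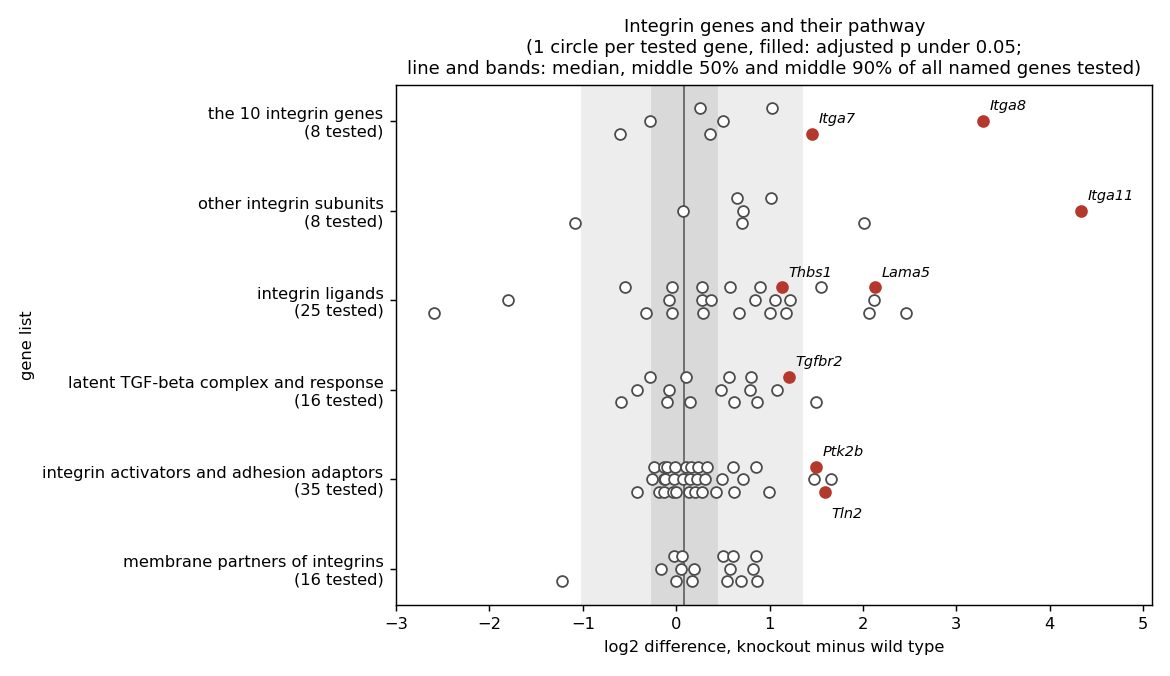
Log2 difference, knockout minus wild type (horizontal axis), of each tested gene of the 10 integrin genes and of 5 pathway lists; filled circles passed (adjusted p under 0.05), and the line and grey bands give the median and the 25th to 75th and 5th to 95th percentiles of all named genes tested. Itga11 at 4.34 and Itga8 at 3.29 lie farthest to the right, and no gene of these lists passed to the left.

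The calls of the integrin genes depended on the processing to different degrees. Itga8 passed in 15 of 17 alternatives, with log2 differences from 2.88 to 3.63. Itgb5 and Itga5 passed only with array weights, an estimate that had not converged and gave both replicate 3 arrays weights above 10. Itgav, Itgb3, Itga6 and Itga9 passed in none of theirs, and the sign of the last 3 turned in at least 1.

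**Figure D4:**
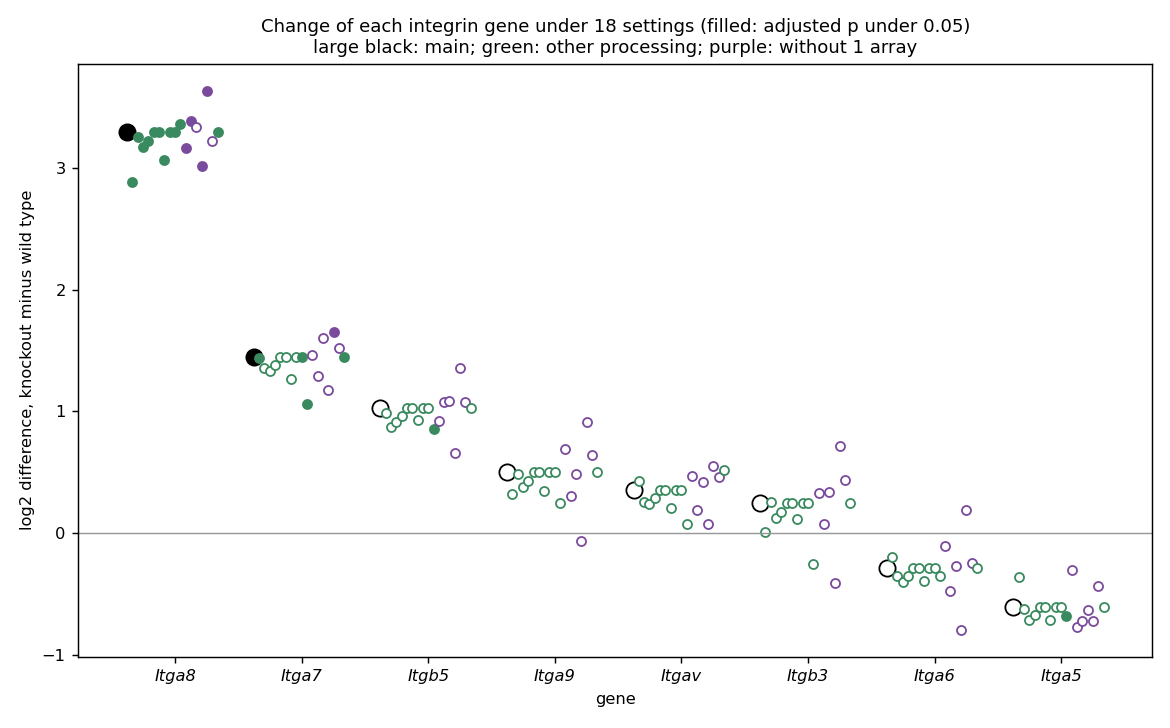
Log2 difference, knockout minus wild type, of each tested integrin gene under 18 settings: the main one in large black, other processing in green and fits without 1 array in purple, filled where adjusted p is under 0.05. Itga8 stays between 2.88 and 3.63, and Itgb3, Itga6 and Itga9 cross 0.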

How the data were processed

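Total RNA of 6 fibroblast cultures (0.5 µg each) was labelled with Cy3, per the labels' protocols, and read on Agilent one-colour arrays. The deposited scanner tables hold, per the file headers, spot intensities made with Agilent Feature Extraction 10.7.3.1 (background-subtracted processed intensity, median intensity of spot and local background) and flags; the submitters' processing notes name version 9.1. A second deposited table gives the authors' log2 values of 35844 probes, with no normalization stated in the labels. Its column medians ran from 5.51 to 5.76. Correlations were at least 0.996 with the same array and at most 0.988 with another; its centring stays unknown, and it served as an alternative.

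Control and outlier spots were left out and spots of 1 probe averaged as log2 (55681 probes). Each array's 75th percentile of log2 processed intensity was subtracted, so values are log2 multiples of it and are not compared between probes. The 24217 probes whose flag put every array of a group well above background entered a two-sided test in limma 3.58.1 (lmFit, eBayes; R 4.3.3). P-values were adjusted over all of these by the Benjamini-Hochberg method, with a threshold of 0.05. No spot was saturated (0). RefSeq accessions without versions gave probe names, from a table of assembly GRCm38.p6 (26413 probes, 47.4%); probes with other identifiers are unnamed here. A gene was read by its tested probe of highest mean. Where a group was at background on every array, "at least" sets it to the higher of its own signal and the lowest signal above background. Summed marker signals add 1 probe per gene on the linear scale.

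Replicate numbers match slides, but the deviations of same-numbered arrays from their group means had correlations of 0.096, -0.020 and 0.210, and arrays were not paired; slide as a block and within-slide values are given as a batch. The fit was tested on simulated data. The genes and lists were chosen with earlier results of these data known. Named were all 10 genes, Mmp19, up to 4 called genes per pathway list (or the 2 of smallest p), called or absent markers, and the 3 nearest profiles per called gene. Itgb1, Fn1, Npnt, Vtn, Itgb6, Spp1, Tgfbi, S100a8, Lyz2, Itgam, Csf1r, Cd14, Fap, Acta2, Rgs5, Notch3, Cspg4, Smtn, Krt5, Trp63, Sftpc and Scgb1a1 were added after their values were seen. The same holds for Acta1, Krt8, Krt19, Upk1b, Flt1, Kdr, Postn, Fbln5, Svep1 and Lama2. Alternatives covered background correction, scaling, filters, the authors' values, slide, prior, array weights, the probe rule and leaving out each array. 1 listed marker is not reported here by name. Array number limits the precision throughout.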

Additional observations from a re-analysis of the deposited data

How the results depend on the processing

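The count of 2 called integrin genes, both higher, was also 2 with normexp, a trended robust prior and the mean of all tested probes of a gene. It was 1, Itga8 alone, with quantile normalization, with the 75th percentile or the median of detected probes, without a filter, with probes above background on all 6 arrays, with the authors' values and with slide as a block (replicate block). It was 4 with array weights, 3 higher and Itga5 lower, whose estimate stopped before converging (weights of 10.2 and 12 on both replicate 3 arrays, 0.16 to 0.384 on the others), and from 0 to 3 without 1 array. The 3, without wild-type replicate 2, were Itga7 and Itga8 higher and Itga4 lower, of 9 tested. The count of called probes, 1124, was 633 with normexp, 113 without a filter, 650 with all 6 arrays above background, 385 with the replicate block, 14879 with array weights and from 108 to 1913 without 1 array. The lowest were without knockout replicate 3 (108) and wild-type replicate 3 (114). Scaled to the 75th percentile of detected probes, 607 were higher and 562 lower, against 697 and 427. The median over the integrin genes, 0.43, ran from 0.01 to 0.81 without 1 array. Its SD over slides was 0.68, larger than the median itself. All settings run stayed within that SD of 0.43, a width too broad to show stability. Directions turned for Itgb3 with array weights (-0.25) and without wild-type replicate 1 (-0.41), for Itga9 without wild-type replicate 1 (-0.06) and for Itga6 without wild-type replicate 2 (0.19). The other ends of their ranges were 0.91 for Itga9 and 0.72 for Itgb3 without wild-type replicate 2 and -0.79 for Itga6 without wild-type replicate 1. The cause was not tested. Signal at background limits Itga4 and Itgb8, for which no difference below the brightness floor can be measured.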
